A study of Mus musculus with 6 samples.

Results

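Ehf, Elf3, Spdef, Grhl1, Grhl2, Grhl3, Ovol1 and Ovol2 are transcription factors of general epithelial identity. They were chosen by gene symbol as members of 3 families. The rule uses no values, but the choice was made with earlier results of these data known. All 8 were among the 24404 genes listed in the deposited count table. RNA had been sequenced from biliary epithelial cells (the lining of the intrahepatic bile ducts) of adult C57BL/6 mice that had received DDC (diethoxycarbonyl-dihydrocollidine, a compound that injures bile ducts) for 1 week. The 3 Klf5 LKO libraries came from Alfp-CreTg/+;Klf5flox/flox mice and the 3 control libraries from Alfp-Cre+/+;Klf5flox/flox mice, so both groups carried floxed Klf5 and both were injured. No uninjured group was analysed here. Alfp-Cre uses albumin and alpha-fetoprotein regulatory sequences that are active in the common precursors of hepatocytes and bile duct cells, so both cell types are targets of the deletion, and the transgene itself was present in the Klf5 LKO group alone. The labels do not tie each library to its own animal, and p-values therefore refer to the spread between libraries, part of which may be technical.

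The 8 factors belong to 3 families. Ehf, Elf3 and Spdef are epithelium-restricted members of the ETS family, which bind DNA through a winged helix and act in the differentiation of glandular and ductal epithelia. The grainyhead-like factors Grhl1, Grhl2 and Grhl3 maintain junctions and barrier genes of epithelia, and the Ovo-like zinc-finger repressors Ovol1 and Ovol2 oppose the transition of epithelial cells to a mesenchymal state. Klf5, the deleted gene, is a zinc-finger factor of the Krüppel-like family, whose members bind CACCC and GC-rich boxes.

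Sequence around the start was shown for the detected factors whose mean level differed most between groups and for which RefSeq (GRCm38.p6) gave a window. A window of 300 bases around a transcript start was matched for 5 of the 8 factors, with 6 windows in all because Grhl1 has 2 starts. The stretches printed here are the parts of the Elf3 window (chr1:135258569-135258722, minus strand) and of the upstream Grhl1 window (chr12:24572037-24572282, plus strand) that lie outside every annotated exon of GENCODE M21. They run 5′ to 3′, and capitals mark CACCC or its reverse complement GGGTG, and GGGCGG or its reverse complement CCGCCC.
Elf3: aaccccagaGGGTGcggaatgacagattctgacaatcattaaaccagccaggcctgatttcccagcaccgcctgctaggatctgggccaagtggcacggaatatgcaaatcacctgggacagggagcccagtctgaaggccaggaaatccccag
Grhl1: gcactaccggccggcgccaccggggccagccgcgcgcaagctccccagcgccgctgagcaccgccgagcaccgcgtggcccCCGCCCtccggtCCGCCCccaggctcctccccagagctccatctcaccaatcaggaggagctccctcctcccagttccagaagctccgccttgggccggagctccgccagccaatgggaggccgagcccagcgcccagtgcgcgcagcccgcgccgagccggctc

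Over the whole 300-base windows, searched on both strands with overlapping matches allowed, CACCC was found 2 times for Elf3, 2 times for Ovol2, 3 times for Grhl3, 2 times at the downstream start of Grhl1, and 0 times at its upstream start and for Spdef. GGGCGG was found 2 times at the upstream start of Grhl1 and 1 time for Grhl3. AACCNGTT, the core of the grainyhead consensus, was found in none of the 6 windows. Of 32851 windows of the same length over all genes, 57.5% held CACCC, 35.7% held GGGCGG and 2.09% held AACCNGTT. The matches describe these letters and are not binding data.

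Total reads assigned to genes ranged from 11726934 to 24784167 per library. Klf5, the targeted gene (chromosome 14, 99298691 to 99315036), had normalised counts of 977, 1192 and 1183 in the 3 Klf5 LKO libraries, against 2056, 2018 and 2316 in the controls. It fell by 0.93 on the log2 scale (SE 0.14, adjusted p = 0.0103), a call that ended without control 1, 2 or 3 (adjusted p = 0.0671, 0.0702 and 0.0573). Counts cover the whole gene, so reads of exons outside the deleted part are included. All 11 biliary markers listed, among them Clu, Spp1 and Epcam, had reads in every library. Of these, 1 was called in limma, the tetraspanin Tspan8, which was lower in Klf5 LKO (adjusted p = 0.0265). Its call was lost without any one library other than Klf5 LKO 1 (limma adjusted p from 0.0580 to 0.166) and with the leukocyte term (0.0733). Groups did not overlap for 3 lower markers, Tspan8 and the keratins Krt19 and Krt7, and 1 higher marker, Cftr. Over all tested genes, 0.489% were called lower in limma, 7.88% were lower without overlap and 7.72% higher without overlap. The summed normalised count of the 11 biliary markers overlapped, from 1298429 to 1558651 in Klf5 LKO and from 1382174 to 1625581 in control. Krt19, a defining ductal keratin chosen after its values were seen, had means of 8345 in Klf5 LKO and 13695 in control (limma adjusted p = 0.0988, DESeq2 adjusted p = 0.00192). Markers of other cells differed between libraries. The summed normalised count of 12 leukocyte markers ran from 9109 to 20858 in Klf5 LKO and from 5747 to 27690 in control, with Lyz2, Cd3e, Cd79a and S100a8 at 0 in at least 1 library. For 10 hepatocyte markers the sum lay between 13044 and 16909 in Klf5 LKO and between 11461 and 14540 in control. For 9 stellate and fibroblast markers it lay between 35 and 86 in Klf5 LKO and between 16 and 75 in control, and for 8 endothelial markers between 348 and 434 in Klf5 LKO and between 373 and 704 in control. The sum of 6 mesothelial markers lay between 1825 and 2045 in Klf5 LKO and between 2833 and 3027 in control, so every Klf5 LKO library lay below control, as for Elf3. Of these markers Gpm6a was the most abundant, and Msln, Wt1, Upk1b and Lrrn4 were at 0 in at least 1 library. In limma, 1 mesothelial marker (Msln) and 1 hepatocyte marker were called. For leukocyte, endothelial, and stellate and fibroblast markers the number called was 0. The part of these other cells in the results was not tested. In bulk RNA, fewer cells of a type and less RNA per cell cannot be told apart.

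Of the 8 factors, 6 had a mean normalised count of at least 10 over the 6 libraries and were tested. None of the 6 was called in limma (0 higher, 0 lower, Benjamini-Hochberg adjusted p under 0.05), where 0.163% of the 13490 tested genes were called higher and 0.489% lower in Klf5 LKO. At an unadjusted p under 0.05, 3 of the 6 passed, Elf3, Grhl1 and Grhl2, against 10.9% of all tested genes. On recovered reads DESeq2 called 1 of the 6, Elf3, which was lower, where it called 1.6% of all genes lower, while the edgeR quasi-likelihood test and limma-voom called 0. The authors' deposited table, also a DESeq2 comparison of these libraries and so not separate evidence, gave Elf3 an adjusted p of 0.0445. Of its genes with an adjusted p, 1.51% were lower in Klf5 LKO past the threshold of 0.05. Groups did not overlap for 2 of the 6: every Klf5 LKO library lay below every control library for Elf3, as for 7.88% of tested genes, and above for Grhl2, as for 7.72%. The median log2 fold change of the 6 was -0.07, and that of all tested genes -0.01.

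**Figure D1:**
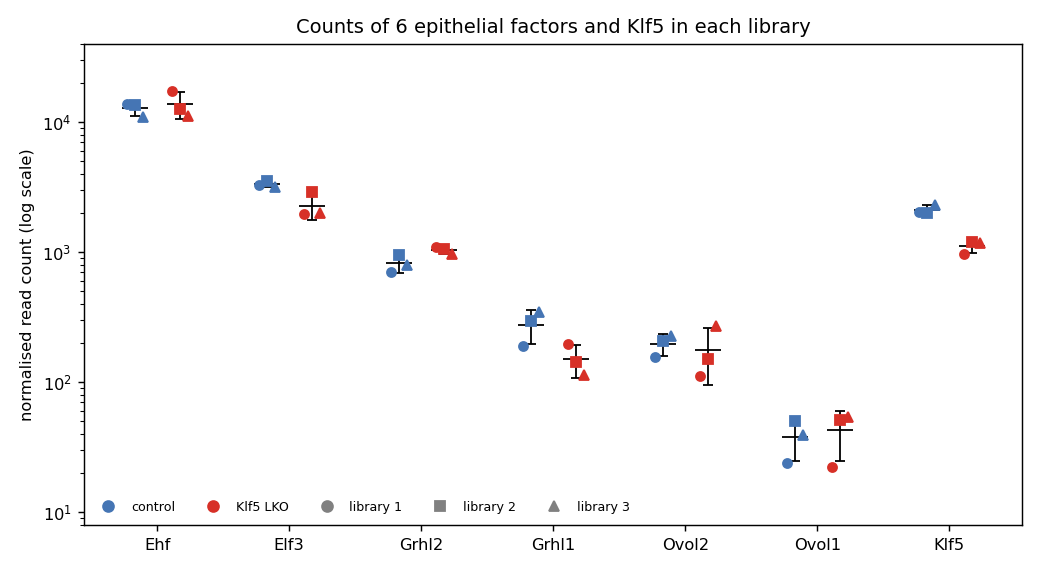
Normalised read count (log axis) of the 6 tested factors and of Klf5 in each library, with control in blue, Klf5 LKO in red, a marker shape per library number, and black bars for the mean and SD of 3 libraries. Elf3 lies lower and Grhl2 higher in all 3 Klf5 LKO libraries, while the groups overlap for Ehf, Grhl1, Ovol1 and Ovol2.

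Elf3 (chromosome 1, 135253575 to 135258568, minus strand), an ETS factor induced in inflamed and differentiating epithelia, had normalised counts of 1969, 2887 and 2012 across the Klf5 LKO libraries (1 to 3), while the control libraries held 3274, 3529 and 3188. The control libraries lay close together and all above the 3 Klf5 LKO libraries, of which library 2 was nearest to control. The means were 2289 ± 518 in Klf5 LKO and 3330 ± 177 in control (SD, n = 3 each). The log2 fold change was -0.56 (SE 0.16, 95% confidence interval -0.90 to -0.22), or 1.48-fold lower on the log2(value + 1) scale, with adjusted p = 0.162 in limma. It was called without Klf5 LKO 2 (log2 fold change -0.74, limma adjusted p = 0.0351) and with DESeq2 (-0.54, adjusted p = 0.0394), and adjusted p reached 0.515 when control 2 was left out. With a term for the leukocyte markers the log2 fold change was -0.63 (limma adjusted p = 0.171). An exon of Elf3 overlaps the opposite-strand gene Gm26642, and because strand handling is not given in the sources used here, reads of the overlap cannot be divided between them.

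Ehf (chromosome 2, 103263433 to 103303278, minus strand), an ETS factor of the same subfamily as Elf3, was the most abundant of the 8 and stood at percentile 99.2 of tested genes by mean count. Klf5 LKO libraries held 17466, 12655 and 11256 normalised counts of it, control libraries 13846, 13586 and 10897. The groups overlapped, and Klf5 LKO 1 was the highest of the 6 libraries. The log2 fold change was 0.09 (95% confidence interval -0.27 to 0.46, limma adjusted p = 0.887), which spans a fold of 0.829 to 1.37. Its sign turned without Klf5 LKO 1 (-0.09) and without control 3 (-0.02).

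Spdef (chromosome 17, 27714352 to 27728955, minus strand), the ETS factor of goblet and other secretory cells, had 16 reads in Klf5 LKO 2, a normalised count of 11.9, and 0 reads in each of the other 5 libraries. Finding 0 reads allows a true count of up to 3 reads, or a normalised count of 2.46 to 4.74 in those 5, by counting error alone. The reads of 1 library are no measure of a group, and Spdef was below the minimum for testing.

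The 2 detected grainyhead-like genes had log2 fold changes of opposite sign. Grhl2 (chromosome 15, 37233036 to 37363569, plus strand), required for junctions of simple epithelia, was at 1099, 1053 and 971 normalised counts in the Klf5 LKO libraries, compared with 708, 961 and 791 in the controls. All 3 Klf5 LKO libraries lay above control, although Klf5 LKO 3 and control 2 were almost level. Its log2 fold change was 0.35 (SE 0.16, 95% interval 0.00 to 0.70, limma adjusted p = 0.452). Part of Grhl2 lies opposite exons of Gm16136.

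Grhl1 (chromosome 12, 24572283 to 24617391, plus strand), which acts on desmosomal cadherins in the epidermis, reached 196, 143 and 113 normalised counts in Klf5 LKO libraries, compared with 189, 296 and 350 in the controls. The groups overlapped through Klf5 LKO 1 and control 1, and the other 4 libraries were apart. At -0.87 (SE 0.31, 95% interval -1.55 to -0.19), its log2 fold change was the largest in size among the 6 and did not pass (limma adjusted p = 0.309). It lay between -1.12 and -0.68 whichever library was left out. Grhl3 (chromosome 4, 135541888 to 135573630, minus strand), the grainyhead-like factor of neural tube closure and skin barrier, had 0 reads in all 6 libraries, which allows a normalised count of up to 2.24 to 4.74 per library.

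Ovol2 (chromosome 2, 144305175 to 144332146, minus strand), which represses Zeb1 in epithelia, was at 112, 151 and 272 normalised counts in the Klf5 LKO libraries, compared with 156, 209 and 229 in the controls. Klf5 LKO held both the lowest 2 and the highest of the 6 values, and its coefficient of variation was 46.8%, against 18.9% in control. The log2 fold change was -0.23 (95% confidence interval -0.98 to 0.52, limma adjusted p = 0.860), and it was 0.05 without Klf5 LKO 1. Ovol1 (chromosome 19, 5549136 to 5560646, minus strand), the Ovo-like factor of hair and skin, rested on 26 to 69 reads per library. This gave normalised counts of 22.2, 51.4 and 54.3 for the Klf5 LKO libraries, compared with 23.9, 50.6 and 39.6 for the controls, so the groups overlapped throughout. The log2 fold change of 0.12 had a 95% confidence interval from -1.12 to 1.36 (limma adjusted p = 0.961), which spans a fold of 0.461 to 2.57. Both Ovo-like genes overlap exons on the opposite strand.

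**Figure D2:**
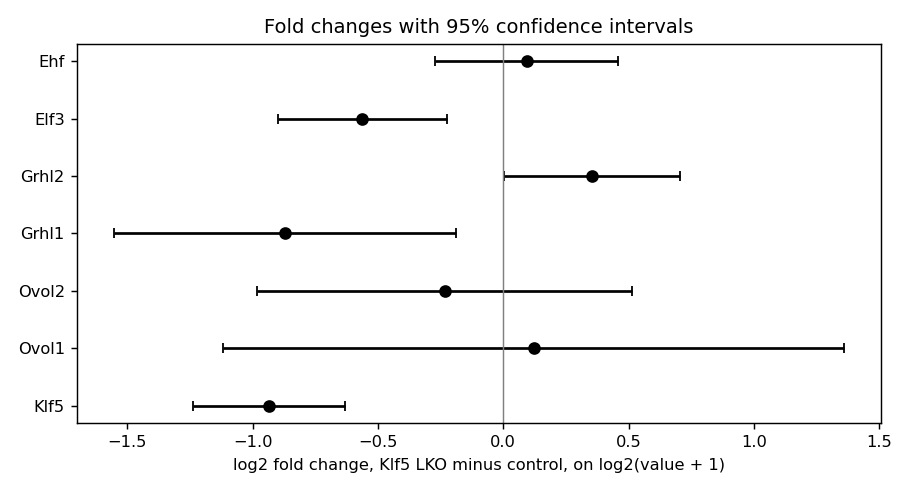
Log2 fold change of Klf5 LKO against control on the log2(value + 1) scale for the 6 tested factors and Klf5, with bars for the unadjusted 95% confidence interval from limma. The intervals of Elf3 (-0.90 to -0.22), Grhl1 (-1.55 to -0.19) and Klf5 lie below 0, that of Grhl2 starts at 0.00, and those of Ehf, Ovol1 and Ovol2 span 0.

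Within a library, the ratio of 2 genes does not depend on the scaling between libraries. Ratios were taken within each family, a choice made after the data were seen. The normalised count of Elf3 was 11.3%, 22.8% and 17.9% of that of Ehf in the Klf5 LKO libraries, compared with 23.6%, 26.0% and 29.3% in the controls. The 2 groups did not overlap, with Klf5 LKO 2 close to control 1. The difference of log2 ratios was -0.66, and -0.37 without Klf5 LKO 1, the library with the highest Ehf count. Grhl1 was 17.9%, 13.6% and 11.6% of Grhl2 in the Klf5 LKO libraries, compared with 26.8%, 30.8% and 44.2% in the controls. These groups did not overlap either, and the difference of log2 ratios was -1.22, between -1.39 and -1.02 whichever library was left out. Ovol1 was 19.9%, 34.2% and 20.0% of Ovol2 in the Klf5 LKO libraries, compared with 15.3%, 24.2% and 17.3% in the controls, with overlap. The two-sided exact permutation p was 0.10 for Elf3 to Ehf and for Grhl1 to Grhl2, the smallest that 3 libraries against 3 can give, and 0.40 for Ovol1 to Ovol2. Adjusted over the 3 ratios, these exact p-values were 0.15, 0.15 and 0.40, and a design of this size cannot reach 0.05.

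**Figure D3:**
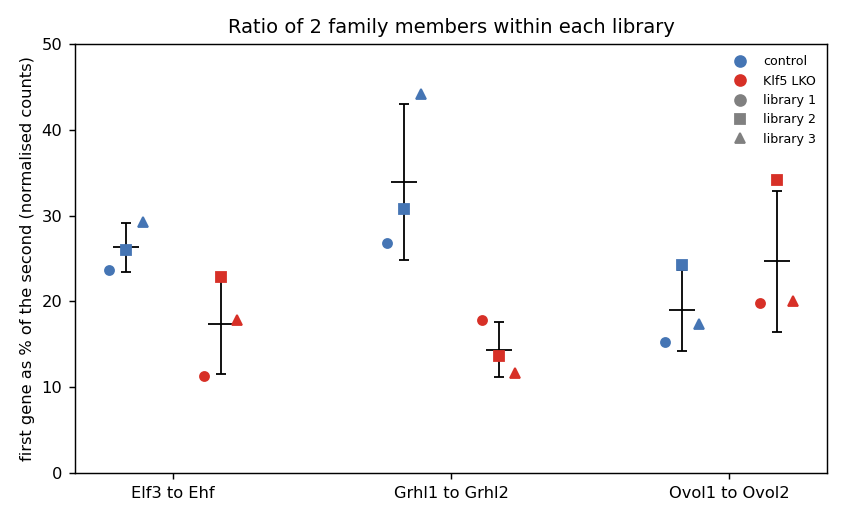
Normalised count of one family member as a percentage of another in the same library, with control in blue, Klf5 LKO in red, and black bars for the mean and SD of 3 libraries. The ratios of Elf3 to Ehf and of Grhl1 to Grhl2 are lower in all 3 Klf5 LKO libraries, and the ratio of Ovol1 to Ovol2 overlaps between groups.

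Levels of different genes were compared per kilobase of merged exon. In control, Ehf had 2291 ± 293 normalised counts per kilobase, Elf3 1502 ± 80.0, Grhl2 95.2 ± 15.0, Ovol2 93.6 ± 17.7, Grhl1 50.2 ± 14.7 and Ovol1 10.9 ± 3.84 (SD, n = 3). In Klf5 LKO the same levels per kilobase were 2474 ± 584, 1033 ± 234, 121 ± 7.50, 84.2 ± 39.4, 27.2 ± 7.63 and 12.2 ± 5.09. Ehf lay above Elf3, and Elf3 above Grhl2, with no overlap among the 6 libraries, and in control the step from Elf3 to Grhl2 was 15.8-fold, or 9.59-fold with the longest transcript as the length. Grhl2 and Ovol2 did not differ beyond their spread in control. Ovol2 lay above Grhl1 in control, but over all 6 libraries the 2 overlapped. Among 26 ETS genes, Ehf and Elf3 had the highest level per kilobase over the 6 libraries, with 32.4% and 17.2% of the family's sum, followed by Ets2 with 11.1%. Among 9 grainyhead and Ovo genes, the broadly expressed Ubp1 (38.0%) and the kidney and duct factor Tfcp2l1 (30.6%) ranked above Grhl2 (12.0%) and Ovol2 (9.85%). These shares depend on the annotated lengths.

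The 3 tested genes whose pattern over the 6 libraries was most like that of Ehf, by Pearson correlation of log2 values, were the arginine methyltransferase Prmt1 (r = 0.998), Nub1 (r = 0.990) and Sdad1 (r = 0.990). These correlations are picked from all tested genes and rest on 6 libraries, with values already scaled for depth. All 3 genes, like Ehf, were highest in Klf5 LKO 1.

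The remaining genes of these families did not pass. Of 23 other ETS genes, 17 were tested, with 0 higher and 0 lower in limma, 3 at an unadjusted p under 0.05, and 0 called with DESeq2, edgeR or voom. Over all tested genes, 10.9% had an unadjusted limma p under 0.05, and 0.163% were called higher and 0.489% lower. Etv1 and Elf2 had the smallest p. Etv1 had normalised counts of 22.2, 1.49 and 9.58 in the Klf5 LKO libraries, compared with 30.3, 31.6 and 43.7 in the controls (limma adjusted p = 0.429). Elf2 had 1480, 601 and 1034 in the Klf5 LKO libraries, compared with 478, 839 and 551 in the controls (limma adjusted p = 0.436). Of the 4 other grainyhead and Ovo genes, 3 were tested and 0 were called in limma or with DESeq2, edgeR or voom, 0 at an unadjusted p under 0.05. Tfcp2 and Ubp1 had log2 fold changes of 0.13 and 0.07.

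Epithelial genes reported downstream of grainyhead-like factors were all tested. Of 29, 2 fell, 0 rose and 27 did not pass in limma, where 0.489% of all tested genes were called lower and 0.163% higher. Their median log2 fold change was -0.08, and 7 had an unadjusted limma p under 0.05, against 10.9% of all tested genes. Lad1, a protein of the basement membrane anchorage, had normalised counts of 2933, 3097 and 2945 in the Klf5 LKO libraries, compared with 5037, 5435 and 4912 in the controls. It fell by 0.78 on the log2 scale (limma adjusted p = 0.00939), a call lost without control 1 (0.0671) or control 2 (0.0905). The most abundant genes of the lists did not pass in limma. The keratin Krt18 had a mean of 111608 in Klf5 LKO and 87255 in control, its partner Krt8 had 68382 and 71955, and E-cadherin (Cdh1) had 43848 and 53262 (limma adjusted p = 0.470, 0.897 and 0.525). The desmosomal cadherin Dsg2 had 39572, 42152 and 39034 in the Klf5 LKO libraries, compared with 23510, 31059 and 28846 in the controls, with no overlap (limma adjusted p = 0.129, DESeq2 adjusted p = 0.00154). Of the 29 genes, groups did not overlap for 2 higher ones, Dsg2 and Krt18, and for 3 lower ones. Over all tested genes these shares were 7.72% and 7.88%.

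Of 18 mesenchymal transition genes that Ovo-like factors and Grhl2 oppose, 13 were tested, with 0 higher and 0 lower in limma. An unadjusted limma p under 0.05 was found for 4 of the 13, against 10.9% of all tested genes. DESeq2 called 2 of them, where it called 335 of 13482 genes over the whole table, and edgeR and voom called 0. Their median log2 fold change was -0.22. Of the 13, 7 had a log2 fold change below 0 and 6 above 0. The 2 genes with the smallest p were Tgfb2, a TGF-beta ligand, and Cdh2, N-cadherin, both higher in Klf5 LKO. The others of the 4 at an unadjusted p under 0.05 were lower. Tgfb2 had normalised counts of 1827, 2196 and 2271 in the Klf5 LKO libraries, compared with 1158, 1418 and 1523 in the controls (limma adjusted p = 0.103, DESeq2 adjusted p = 0.00930). Cdh2 had 1059, 1137 and 1146 in the Klf5 LKO libraries, compared with 496, 552 and 924 in the controls (limma adjusted p = 0.145, DESeq2 adjusted p = 0.0390). In both, all Klf5 LKO libraries lay above control, as for 7.72% of all tested genes. For 0 of the 13 they all lay below, against 7.88% of all tested genes.

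Of 30 secretory and mucosal genes linked to Spdef, Elf3 and Ehf, 15 were tested, with a median log2 fold change of -0.32. In limma 1 fell, 0 rose and 14 did not pass, where 0.489% of all tested genes were called lower and 0.163% higher. An unadjusted limma p under 0.05 was found for 8 of the 15, against 10.9% of all tested genes. The 8 held both lower and higher genes, and of the 15, 10 had a log2 fold change below 0 and 5 above 0. Because the list was chosen with earlier results of these data known, this count is a description and not a test. The one that fell was Tff2, a trefoil peptide secreted with mucus, with 27.9, 22.4 and 10.6 in the Klf5 LKO libraries, compared with 290, 247 and 185 in the controls. It fell by 3.58 on the log2 scale (limma adjusted p = 0.00447), a call lost without control 1 (0.0560) or control 2 (0.0632). The ductal keratin Krt7 had 6116, 7619 and 5437 in the Klf5 LKO libraries, compared with 10101, 9940 and 9295 in the controls, with no overlap (limma adjusted p = 0.0720, DESeq2 adjusted p = 0.000905). Krt7 passed under 3 of 17 alternatives: DESeq2, limma at a mean of at least 50 (adjusted p = 0.0451) and limma without Klf5 LKO 2 (0.0296). Limma without control 1, 2 or 3 gave adjusted p = 0.285, 0.305 and 0.148, and 0.205 without Klf5 LKO 3. Krt7 was named after its values were seen. Groups did not overlap for 3 lower and 1 higher of the 15 genes, against 7.88% and 7.72% of all tested genes.

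**Figure D4:**
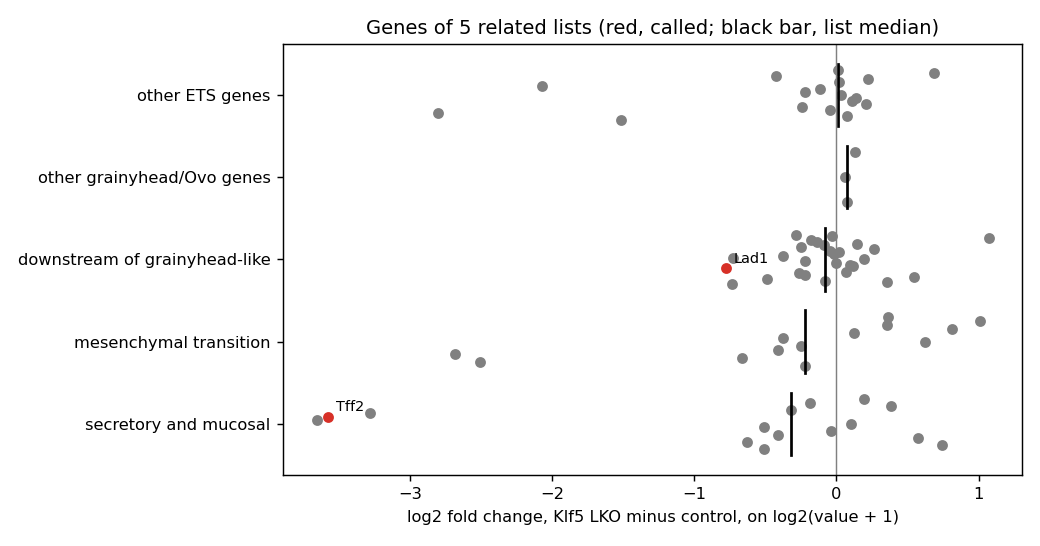
Log2 fold change (Klf5 LKO minus control, log2(value + 1) scale) of the tested genes reported from 5 related lists, with called genes in red and the list median as a black bar. Of the called genes, Lad1 and Tff2 are drawn and labelled, and the list medians lay between -0.32 and 0.07.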

How the data were processed

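The submitters' processing notes name TopHat, Bowtie2 and DESeq2 and the mm10 build. How reads were counted, with which annotation and strand setting, is not given in the sources used here. Per the labels' protocols, libraries were amplified from little RNA, which adds noise for low genes. The authors deposited a signal per gene and library, which is the number of reads scaled by a size factor. All deposited signal values were whole multiples of the value of 1 read within 0.001 (100% of values), so whole reads were recovered. Their deposited comparison table holds log2 fold changes, a Wald statistic (score) and p-values, per the file headers.

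Here limma 3.58.1 (eBayes with trend, R 4.3.3) was fitted on log2(value + 1) to 13490 genes, those at or above a mean of 10, two-sided, with Benjamini-Hochberg adjustment over all of them and a threshold of 0.05. A pseudocount of 1 understates changes of low genes. DESeq2 1.42.0, edgeR 4.0.16 and voom on recovered reads, other scalings, filters and pseudocounts, a replicate block, a leukocyte term and leaving out each library were alternatives. Limits given for 0 reads cover counting error alone, since PCR copies without molecular identifiers are counted as separate reads.

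Positions and exon lengths come from GENCODE M21 (GRCm38, the assembly of mm10). Named genes are the 8 factors, Klf5, the called genes of 5 related lists (or the 2 with the smallest p), the 4 most abundant list genes and the 3 most like Ehf. A called list gene is not reported here, though it remains in the counts. Krt7, the biliary markers named and the family ratios were added after their values were seen. The members and lists were chosen with earlier results of these data known, so their counts beside all tested genes are descriptions and not tests.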

Additional observations from a re-analysis of the deposited data

How the results depend on the processing

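The 88 genes called over the whole table became 335 with DESeq2 and 50 with the leukocyte term, and 14 to 103 when 1 library was left out (leaving out Klf5 LKO 3 gave 49, and leaving out control 1, 2 or 3 gave 21, 14 and 49). Of the DESeq2 calls 35.5% were higher, against 25.0% of the 88.

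Elf3 was negative under all 17 alternatives (-0.74 to -0.46 without single libraries) and called under 2 of them, DESeq2 (-0.54) and without Klf5 LKO 2 (-0.74). Grhl1 and Grhl2 kept their direction and stayed short of the threshold under all 17. Ovol1 changed sign with the leukocyte term (-0.12) and spanned -0.17 to 0.53 without single libraries. Ehf spanned -0.090 to 0.23 and Ovol2 -0.59 to 0.049 without single libraries. Klf5 spanned -0.98 to -0.84. The differences of log2 ratios, alternatives chosen after seeing the data, kept their sign under all 8 (Elf3 to Ehf -0.88 to -0.37, Grhl1 to Grhl2 -1.39 to -1.02, Ovol1 to Ovol2 0.10 to 0.54). The cause of these shifts was not tested.

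Calls in the lists also moved. With DESeq2, which called 335 of 13482 genes, they were 4 for genes downstream of grainyhead-like factors and 2 for mesenchymal transition genes. Secretory genes had 2 with DESeq2 and 2 with a mean of at least 50. Without single libraries the calls in these lists spanned 0 to 3, 0 to 1 and 0 to 2, in that order. Counted by the longest transcript, control levels per kilobase were 2859 for Ehf, 1590 for Elf3, 166 for Grhl2, 128 for Ovol2 and 80.2 for Grhl1, in the same order.

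The replicate numbers of the titles did not pair the libraries by the rule used: same-numbered libraries correlated at 0.185, -0.01 and 0.106 in their deviations from the group means, and not every library correlated best with its own number. With the replicate block 110 genes were called, and Elf3 had a limma adjusted p of 0.102. Depth limits Ovol1 most among the tested factors, with 26 to 69 reads per library.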
